A study of Homo sapiens with 24 samples.

Results

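The replication-dependent histone genes encode the linker histone H1 and the core histones H2A, H2B, H3 and H4 that are made in bulk while DNA is copied. They were taken from a gene-level read count table of bladder cancer cell lines by symbol (H2AC, H2BC, H3C or H4C followed by digits, and H1-1 to H1-5), and 65 of its 35993 rows matched. The members were also selected on measured values, since rows with under 10 counts in every library were left out, which removed 5 rows and left 60 members. These are 4 H1, 15 H2A, 16 H2B, 13 H3 and 12 H4 genes, 49 of them on chromosome 6 and 11 on chromosome 1. Just inside the limit stood H3C12, with at most 12 counts in a library, and H4C9, with at most 19. Just outside it stood H2BC1, with at most 7 counts, and H1-1, with at most 5, and the others left out were H2AC1, H4C6 and H4C7. The family was picked for description with earlier results of these same libraries known, in which 2 members, H3C3 and H4C13, had been named.

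The study compared derivatives of J82 and RT-112, both established human bladder cancer lines, that differ in the level of the surface receptor CD44. In each line there were 4 groups: the parental cells, a CD44 Low line, a CD44 High line, and a CD44v6 line with a high level of the receptor form that carries variant exon v6. Each of the 8 groups had 3 libraries of total RNA, described by the submitters as biological replicates, and no drug treatment is named. How the derived lines were made, and from how many founder cells, is not given in the sources used here, so each group is 1 line and a difference between groups is a difference between these lines.

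The total count ran from 16752825 to 24419670 per library, of which the members took between 77361 and 319355, or 0.436% to 1.44%. CD44 itself, the gene behind the labels, averaged 445 ± 46.5 CPM (counts scaled to 1000000 per library; SD, n = 3) in J82 parental cells, 279 ± 27.9 in CD44 Low, 727 ± 32.0 in CD44 High and 800 ± 242 in CD44v6. In RT-112 the CD44 means were 317 ± 27.2, 141 ± 18.2, 420 ± 70.0 and 448 ± 69.0 CPM in the same order, so the Low and High libraries ranked as labelled in both lines. Of 11 epithelial and urothelial marker genes, all 11 reached 1 CPM in RT-112, and 7 did so in J82, where KRT5, GATA3, UPK2 and KRT20 stayed below it. Of 4 leukocyte markers PTPRC, CD3E and LYZ were below 1 CPM in every library of both lines, and CD68 ran from 76.95 to 216 CPM in J82 and from 6.94 to 13.7 CPM in RT-112. CD68 was lower in J82 CD44 Low (93.2 ± 24.5 CPM) than in J82 parental cells (166 ± 12.9 CPM), and its part in any histone result was not tested. Of 3 fibroblast markers DCN was below 1 CPM in every library, and 2 reached it in J82 and 1 in RT-112, with list sums of at most 28.1 and 4.75 CPM.

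Histone supply is tied to DNA replication. Transcription of these genes rises in S phase through the coactivator NPAT at dedicated nuclear bodies. Their pre-mRNAs mostly lack introns and end not in a poly(A) tail but in a conserved stem-loop, which the stem-loop binding protein SLBP recognises and next to which the U7 small nuclear ribonucleoprotein directs the cut. When replication stops the messages are degraded. A minority of the genes also make polyadenylated transcripts, and a separate set of replication-independent variants, such as H3.3 and H2A.Z, is expressed outside S phase.

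The stem-loop is shown because it is the feature that sets these messages apart. Among GENCODE 29 coding transcripts (GRCh38), which listed 56 of the 60 members, a stem of 6 pairs beginning with GG around a loop of 4 bases beginning with TT was found in 24 members, and in 95 of 19628 other coding genes (0.484%). The stems are in capitals and the loops in lower case, 5′ to 3′, with 1 example of each of the 4 sequences.
H2BC21, minus strand, chr1:149886188-149886203: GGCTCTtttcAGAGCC
H2BC4, minus strand, chr6:26123472-26123487: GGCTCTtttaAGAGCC
H4C2, minus strand, chr6:26026901-26026916: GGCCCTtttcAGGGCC
H4C15, minus strand, chr1:149860769-149860784: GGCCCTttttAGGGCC
The first sequence was found in 13 members, the second in 4, the third in 4 and the fourth in 3. The stem separated the classes, since all 7 H4 genes with a match had the second pair of sequences and all 17 H2A, H2B and H3 genes with a match had the first pair. In 18 of the 24 members a listed transcript ran more than 100 bases past the stem-loop. A member without a match is only one whose listed transcripts lack these letters.

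The promoters are shown for 4 members on which the comparisons below turn: H3C3 and H4C13, which had the largest falls in CD44 Low among members called in both J82 and RT-112, and H1-5 and H2BC14, which were at or near 0 in J82. The sequences are the 120 bases before the RefSeq gene start (GRCh38.p14), 5′ to 3′ in the direction of the gene. Capitals mark the CCAAT box, the TATA box searched as TATAAA, and the octamer searched as ATTTGCAT, or the reverse complement of any of them. The authors' counts were made on GRCh37, per the submitters' processing notes, and none of these coordinates were used for counting.
H3C3, plus strand, chr6:26045264-26045383: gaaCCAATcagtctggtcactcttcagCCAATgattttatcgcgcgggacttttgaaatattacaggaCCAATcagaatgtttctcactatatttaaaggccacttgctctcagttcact
H4C13, minus strand, chr6:27873535-27873654: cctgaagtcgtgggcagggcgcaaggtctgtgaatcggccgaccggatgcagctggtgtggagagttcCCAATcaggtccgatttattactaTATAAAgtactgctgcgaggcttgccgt
H1-5, minus strand, chr6:27867589-27867708: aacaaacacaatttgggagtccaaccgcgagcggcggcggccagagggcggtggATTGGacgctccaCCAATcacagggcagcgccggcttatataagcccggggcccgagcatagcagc
H2BC14, plus strand, chr6:27814902-27815021: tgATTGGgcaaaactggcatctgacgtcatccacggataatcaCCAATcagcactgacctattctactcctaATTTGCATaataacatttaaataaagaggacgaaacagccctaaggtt
In the 250 bases before the start, on both strands, CCAAT was present in 47 of the 55 members with a promoter entry, against 33% of all 27305 promoters in the table. TATAAA was present in 37 of 55 members, against 11.1% of all promoters. The octamer ATTTGCAT was present in 24 of 55 members, against 1.66% of all promoters. CCAAT was found in all 4 H1, 14 H2A, 16 H2B and 11 H3 promoters searched but in 2 of 10 H4 promoters. The octamer, known as an element of H2B promoters, was found in 13 of 16 H2B and 10 of 14 H2A promoters, in 1 of 11 H3 promoters and in no H1 or H4 promoter. H2A and H2B genes that face away from each other share such windows, so their matches are not separate. No promoter entry was matched for H2AC12, H3C11, H3C12, H4C1 or H4C3.

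The first question was how the histone messages differ between each CD44 Low line and its parental cells. In both lines the summed level of the 60 members was lower in CD44 Low, by more than the spread between libraries. In J82 the sum was 8164, 8631 and 8198 CPM in the 3 parental libraries and 4311, 4648 and 5173 CPM in CD44 Low. In RT-112 it was 13700, 13853 and 14832 CPM in the parental libraries and 9628, 8214 and 7997 CPM in CD44 Low. The groups did not overlap in either line. The means were 8331 ± 260 and 4711 ± 434 CPM in J82 (SD, n = 3), a ratio of 0.565, and 14128 ± 614 and 8613 ± 886 CPM in RT-112, a ratio of 0.610. A sum over chosen genes was given no p-value. Each library pools the RNA of many cells, so fewer cells in S phase and less histone RNA per cell cannot be told apart. CPM is also relative to the other RNA in a library, so a rise of that other RNA cannot be told apart either.

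**Figure D1:**
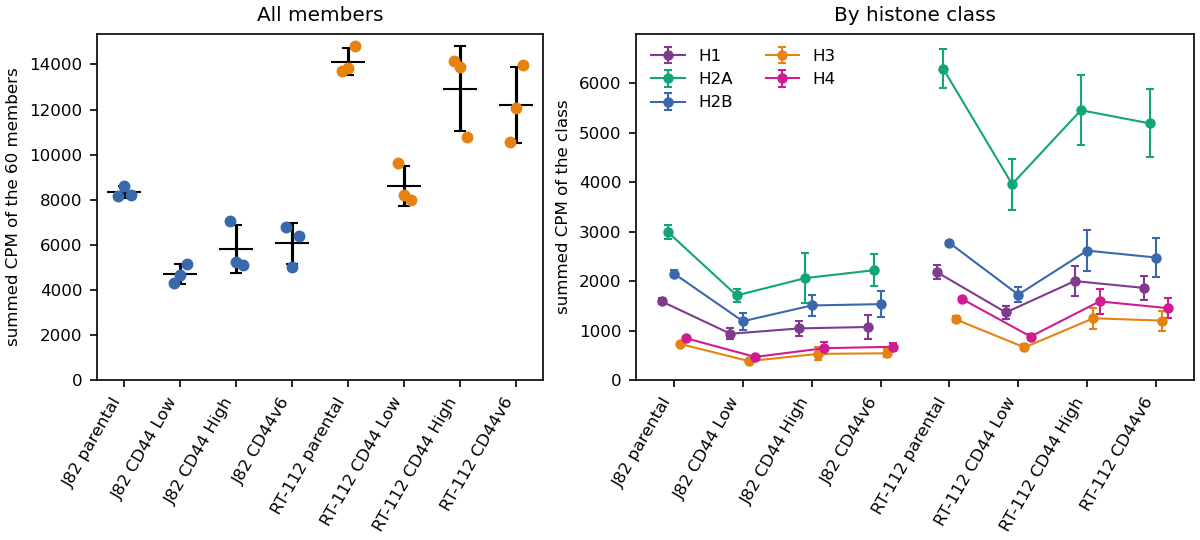
Summed CPM of the 60 members (left) and of each histone class (right) in the 8 groups. On the left each point is 1 library and the black bars are the mean and SD of 3 libraries; on the right points and bars are means and SD. CD44 Low has the lowest mean of its line in both panels, at 4711 CPM in J82 and 8613 CPM in RT-112.

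In the gene-level fit (edgeR's quasi-likelihood test, Benjamini-Hochberg adjusted over all genes tested), 45 of 54 members tested fell in J82 CD44 Low against parental and none rose. Among all 15951 genes tested in J82, 3.08% were called lower and 2.26% higher. In RT-112, 52 of 58 members tested fell and none rose, while 1.87% of all 15645 genes were called lower and 1.33% higher. All 54 and all 58 log2 fold changes were below 0, with medians of -0.91 in J82 and -0.76 in RT-112, against 0.00 and -0.01 over all genes. The 6 members not tested in J82 and the 2 not tested in RT-112 averaged under 1 CPM in every group of that line. Of the 54 members tested in both lines, 42 fell in both. The count in J82 dropped to 29 without parental replicate 2, to 29 without parental replicate 3 and to 27 without CD44 Low replicate 1. In RT-112 it dropped to 33 without CD44 Low replicate 2.

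The fall ran through all 5 classes. Of the linker histones, which bind the DNA between nucleosomes, all 3 H1 genes tested fell in J82 and all 4 in RT-112. H1-4, the H1 gene with most reads, was at 918, 970 and 894 CPM in J82 parental libraries and at 495, 625 and 636 CPM in CD44 Low. Its RT-112 values were 736, 720 and 765 CPM in parental libraries and 565, 494 and 493 CPM in CD44 Low. H1-4 was thus lower in every Low library of both lines, with log2 changes of -0.67 ± 0.159 (SE, edgeR adjusted p = 0.0300) and -0.55 ± 0.1 (edgeR adjusted p = 0.0113). The J82 call of H1-4 was lost without any 1 of the libraries except CD44 Low replicate 3 (edgeR adjusted p from 0.0657 to 0.119). Its RT-112 call was lost without parental replicate 1 or CD44 Low replicate 2 and with all 24 libraries (edgeR adjusted p from 0.0507 to 0.0594). H1-2, the next by reads, changed by -0.90 ± 0.152 and -0.65 ± 0.115, and its RT-112 call was lost without CD44 Low replicate 2 (edgeR adjusted p = 0.0552).

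H2A and H2B form the dimers that cap the nucleosome core. Of 15 H2A genes, 13 fell in each line, and of the H2B genes 11 of 14 tested fell in J82 and 15 of 16 in RT-112. H2AC16 fell most among H2A genes called in both lines, from 44.6, 50.03 and 44.5 CPM to 16.4, 15.7 and 21.9 CPM in J82. In RT-112 H2AC16 went from 346, 354 and 388 CPM to 190, 174 and 184 CPM. These are log2 changes of -1.37 ± 0.259 (edgeR adjusted p = 0.00902) and -1.02 ± 0.149 (edgeR adjusted p = 0.00434), and the groups did not overlap.

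The H2A genes with most reads, H2AC19 and H2AC18, changed by -0.70 and -0.68 in J82 and by -0.57 and -0.56 in RT-112. In J82 both calls were lost without parental replicate 2 or 3 or CD44 Low replicate 1 or 2, and that of H2AC18 also without parental replicate 1 (edgeR adjusted p from 0.0587 to 0.0944). In RT-112 both were lost without parental replicate 2 or 3 or CD44 Low replicate 2 (edgeR adjusted p from 0.0548 to 0.0717). Their counts kept a ratio between 0.909 and 0.943 in all 24 libraries. They are near-identical copies whose shared reads may have been split in the authors' counting, so their values are uncertain and not independent. The same holds for H3C14 and H3C15, H4C14 and H4C15, and H4C11 and H4C12, whose count ratios stayed within 0.975 to 1.044, 0.966 to 0.996 and 0.986 to 1.105. Of the H2B genes with most reads, H2BC4 fell by 0.89 and 0.75 on the log2 scale in J82 and RT-112. H2BC5 fell by 0.62 in J82 and stood at -0.55 in RT-112, where it missed the threshold (edgeR adjusted p = 0.0594). The J82 call of H2BC5 was lost without any 1 of the libraries except CD44 Low replicate 3 (edgeR adjusted p from 0.0537 to 0.105). Its RT-112 value passed with DESeq2 (adjusted p = 0.011) and with the compared groups alone (edgeR adjusted p = 0.00353), so no contrast between the lines follows.

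H3 and H4 form the tetramer at the centre of the nucleosome. Of the H3 genes 8 of 11 tested fell in J82 and 10 of 12 in RT-112, and of the H4 genes 10 of 11 tested fell in each line. H3C3 had the largest fall shared by both lines. It was at 50.5, 43.0 and 38.7 CPM in J82 parental libraries and at 15.6, 9.99 and 18 CPM in CD44 Low. In RT-112 H3C3 was at 205, 212 and 224 CPM in parental libraries and at 67.4, 59.5 and 60.1 CPM in CD44 Low. The log2 changes of H3C3 were -1.61 ± 0.228 in J82 (edgeR adjusted p = 0.00139) and -1.81 ± 0.243 in RT-112 (edgeR adjusted p = 0.00242).

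H4C13 came next, at 24.5, 25 and 23.7 CPM in J82 parental libraries and 8.97, 7.51 and 10.8 CPM in CD44 Low. In RT-112 H4C13 was at 288, 353 and 342 CPM and then at 117, 137 and 122 CPM. The changes of H4C13 were -1.43 ± 0.199 (edgeR adjusted p = 0.00127) and -1.42 ± 0.196 (edgeR adjusted p = 0.00328), while its parental mean was 24.4 CPM in J82 and 328 CPM in RT-112. H4C15 fell by 1.01 (J82) and 0.96 (RT-112) on the log2 scale. Of the H3 and H4 genes with most reads, H3C2 fell by 1.26 and 0.75 and H4C4 by 0.98 and 0.76 in J82 and RT-112. The RT-112 call of H4C4 was lost without CD44 Low replicate 2 (edgeR adjusted p = 0.0594). H3C4 stood at -0.39 in J82, where it was not called, and at -0.82 in RT-112, where it was. In RT-112 the largest single fall was in H2BC3, from 31.2, 37.7 and 38.5 CPM to 10.9, 10.3 and 7.48 CPM, or -1.94 ± 0.301 (edgeR adjusted p = 0.00525).

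**Figure D2:**
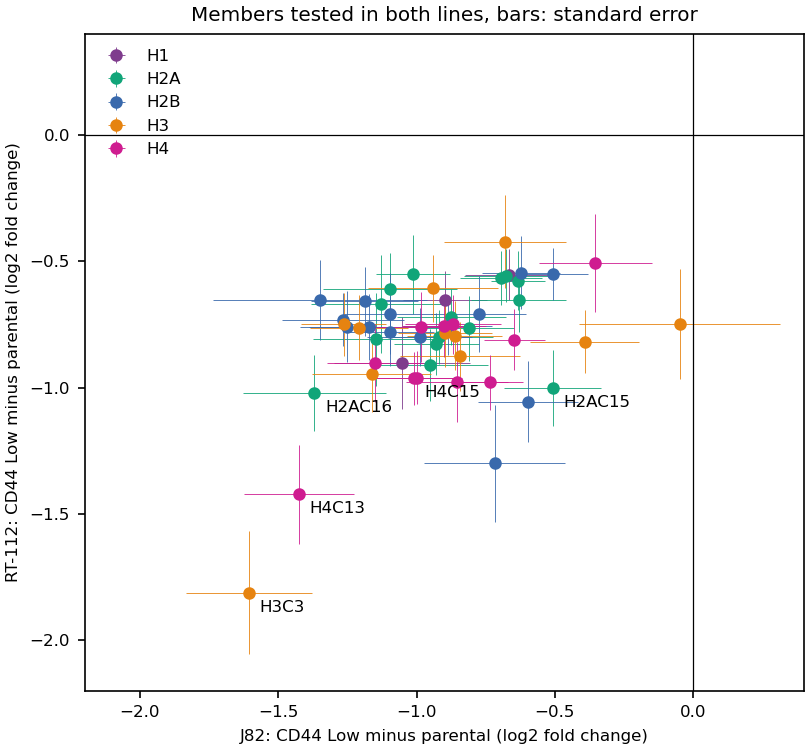
Log2 fold change in CD44 Low against parental cells for the 54 members tested in both lines, J82 on the horizontal axis and RT-112 on the vertical axis, coloured by class; bars are standard errors. Every point lies below 0 on both axes, and H3C3 and H4C13 lie farthest down the diagonal.

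Members outside the calls were few. In J82 they were H2AC6, H2AC15, H2BC6, H2BC8, H2BC15, H3C1, H3C4, H3C6 and H4C1, and in RT-112 H2AC7, H2AC17, H2BC5, H3C1, H3C6 and H4C1. H3C1, H3C6 and H4C1 missed the threshold in both lines. H3C6 was among the least counted members tested, and its value in J82 was -0.05 ± 0.364. H3C1 and H4C1, the first members of the chromosome 6 cluster in gene order, stood at -0.68 and -0.35 in J82 and at -0.42 and -0.51 in RT-112.

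Since most of these messages lack a poly(A) tail, the comparison was set beside members and RNAs with other 3′ ends. Of 6 members known to make polyadenylated transcripts (H1-2, H2AC6, H2BC4, H2BC5, H2BC12 and H2BC21), 5 fell in each line, with medians of -0.76 in J82 and -0.65 in RT-112. Among other RNAs without a poly(A) tail (7SL, 7SK, small nuclear, small nucleolar and Cajal body RNAs), 3 of 249 tested fell in J82 and 1 rose, with a median of 0.16. In RT-112, 14 of 214 fell, none rose, and their median was -0.57. The summed CPM of these RNAs was 66560 to 82879 in J82 parental libraries and 55851 to 96184 in CD44 Low, which overlap. In RT-112 it was 82440 to 94313 in parental libraries and 73016 to 80218 in CD44 Low, which do not. Most of this sum was 7SL and 7SK RNA, at 78458 and 70277 CPM on average in those groups. Small nuclear RNA went from 673.8 ± 49.4 to 280.5 ± 104.8 CPM there. Small nucleolar and Cajal body RNA went from 4529.9 ± 1267.5 to 2359.6 ± 720.2 CPM. Both stayed low in RT-112 CD44 High (220 and 1963 CPM) and CD44v6 (197 and 1808 CPM). In J82 both overlapped between parental and CD44 Low. With all RNAs of this list, 7SL and 7SK included, removed from the fit 46 members fell in J82 and 52 in RT-112. Their removal leaves the histone counts themselves unchanged, so the part of such RNAs in the histone result was not tested. The replication-independent variants H3-3A, H3-3B, H2AZ1 and H2AZ2 together were at 608 ± 8.80 CPM in J82 parental and 547 ± 55.7 CPM in CD44 Low, and at 829 ± 30.9 and 894 ± 62.4 CPM in RT-112.

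The next comparisons set the CD44 High and CD44v6 lines against the same parental libraries as CD44 Low, so the 3 comparisons of a line share their controls. In J82 a minority of members fell in each line and the summed level was lower in both. In RT-112 no member passed the test, but 47 of 58 log2 changes in CD44 High and 54 in CD44v6 were below 0. Their medians were -0.17 and -0.27, against 0.00 and 0 over all genes. Whether J82 and RT-112 differ in these comparisons was not tested. The summed level in J82 CD44 High was 7046, 5258 and 5128 CPM, and in CD44v6 6797, 5022 and 6377 CPM, all below the lowest parental library at 8164 CPM. The ratios to the parental mean were 0.697 and 0.728. In RT-112 CD44 High the sums were 14147, 13864 and 10765 CPM, and in CD44v6 10557, 12084 and 13955 CPM, and both ranges overlapped with the parental one. Their ratios were 0.915 and 0.863. Among the classes, the H2A sum alone did not overlap with its parental range in either RT-112 comparison, with ratios of 0.867 and 0.825.

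Of 54 members tested, 9 fell in J82 CD44 High against parental, where 1.23% of all genes were called lower, and 5 fell in CD44v6, where 0.74% were. These 5 (H2AC16, H2BC7, H2BC21, H3C3 and H4C2) were all among the 9. H3C3 fell most, with log2 changes of -1.44 ± 0.225 in CD44 High (edgeR adjusted p = 0.00459) and -1.08 ± 0.223 in CD44v6 (edgeR adjusted p = 0.0270). H3C3 was at 19, 12.2 and 17.7 CPM in J82 CD44 High and at 20.9, 16.4 and 25.1 CPM in CD44v6, all below its lowest parental value of 38.7 CPM. The CD44v6 call of H3C3 was lost without any 1 of the libraries except CD44v6 replicate 3 (edgeR adjusted p from 0.0595 to 0.147). H2AC16 followed, with -1.42 ± 0.258 in CD44 High and -1.08 ± 0.256 in CD44v6.

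The count in J82 CD44 High became 4, 3 and 4 without parental replicate 1, 2 or 3, and 23, 3 and 4 without CD44 High replicate 1, 2 or 3. The count in J82 CD44v6 became 0 without any 1 of the parental libraries, 2 without CD44v6 replicate 1 and 0 without CD44v6 replicate 2. With DESeq2 the counts were 22 and 16. In RT-112, 0 of 58 members were called in either comparison by edgeR, with 12 at an unadjusted p under 0.05 in CD44 High and 23 in CD44v6. Among all RT-112 genes tested, 12.3% and 15.3% had such a p. DESeq2 called 0 and 1 of the members. Of all RT-112 genes, 0.262% were called lower in CD44 High and 0.326% in CD44v6.

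**Figure D3:**
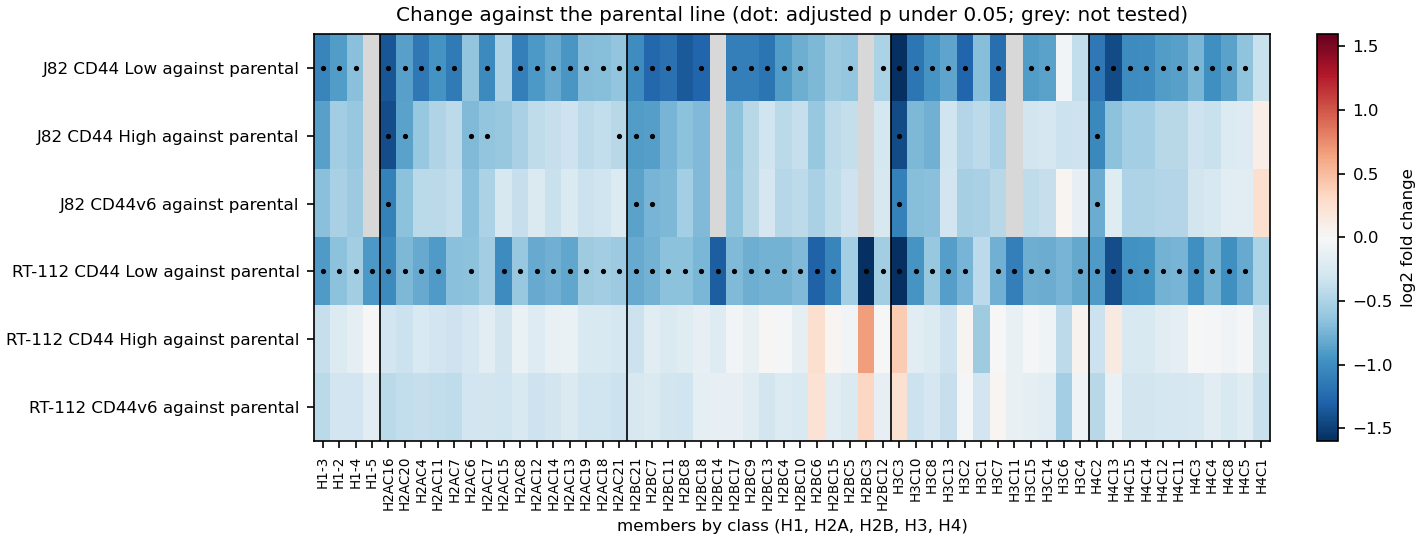
Log2 fold change of each member (columns, grouped by class) in the 6 comparisons with the parental line (rows); blue is lower, red is higher, a dot marks an adjusted p under 0.05 and grey a member not tested. The 2 CD44 Low rows carry 45 and 52 dots, the J82 CD44 High and CD44v6 rows 9 and 5, and the RT-112 CD44 High and CD44v6 rows none.

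The CD44 High and CD44v6 lines were then compared with CD44 Low directly. Against CD44 Low, histone messages were higher in the CD44 High line of both cell lines, for most members in RT-112 and for a smaller number in J82. In RT-112, 45 of 58 members rose in CD44 High and none fell, while 9.01% of all genes were called higher and 7.02% lower. In J82, 12 of 54 rose and none fell, while 8.83% of all genes were called higher and 6.9% lower. The medians over members were 0.60 in RT-112 and 0.44 in J82. The summed level was 1.5 times that of CD44 Low in RT-112, where the groups did not overlap, and 1.23 times in J82, where they did.

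All 12 members that rose in J82 rose in RT-112 too: H2AC13, H2BC9, H2BC13, H3C2, H3C7, H3C14, H3C15, H4C3, H4C4, H4C5, H4C8 and H4C13. H3C2 was at 70.3, 70.8 and 84.4 CPM in J82 CD44 Low and at 158, 126 and 107 CPM in CD44 High. In RT-112 H3C2 was at 124, 102 and 99.8 CPM and then at 201, 197 and 156 CPM. The log2 change of H3C2 was 0.80 in both lines (SE 0.152 and 0.124), with edgeR adjusted p = 0.00336 in J82 and 0.00150 in RT-112. H2BC13 rose by 0.85 and 0.78, H4C13 by 0.76 and 1.56, and H3C7 by 0.69 and 0.78 in J82 and RT-112. Of the 12, 9 were H3 or H4 genes, among them the near-identical copies H3C14 and H3C15. By class, 4 of 11 H3 and 5 of 11 H4 genes tested rose in J82, against 0 of 3 H1, 1 of 15 H2A and 2 of 14 H2B genes. In RT-112 the counts were 9 of 12 H3, 10 of 11 H4, 3 of 4 H1, 8 of 15 H2A and 15 of 16 H2B genes. The J82 medians differed less than these counts, at 0.39 for H2A, 0.42 for H2B, 0.44 for H3 and 0.45 for H4, with H1 at 0.18. The J82 counts alone thus do not set the core histone classes apart.

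The J82 count rested on single libraries. It became 1 without CD44 Low replicate 1, 6 without CD44 Low replicate 2, 1 without CD44 High replicate 1, 6 without CD44 High replicate 2 and 23 without CD44 High replicate 3. Of the genes named, H3C7 lost its J82 call in 3 of the 6 fits without 1 library and H2BC13 and H4C13 in 4. CD44 High replicate 1 had the highest sum of its group, at 7046 CPM against 5258 and 5128 CPM in the other libraries. The RT-112 count ran from 32 to 52 when 1 library was left out.

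CD44v6 against CD44 Low gave a like picture from the same Low libraries. In RT-112, 37 of 58 members rose, beside 7.97% of all genes, and in J82, 14 of 54 rose, beside 6.18%; none fell. H4C13 had the largest rise called in both lines, from 8.97, 7.51 and 10.8 CPM in J82 CD44 Low to 25.1, 16.7 and 22 CPM in CD44v6. The RT-112 values of H4C13 in CD44v6 were 251, 279 and 412 CPM, against 117, 137 and 122 CPM in CD44 Low. These are log2 changes of 1.23 ± 0.199 (edgeR adjusted p = 0.00158) and 1.32 ± 0.196 (edgeR adjusted p = 0.00134). H3C7, H3C2 and H4C8 rose by 0.76, 0.73 and 0.67 in J82 and by 0.79, 0.73 and 0.73 in RT-112. The J82 call was lost in 3 of the 6 fits without 1 library for H3C7 and in 5 for H4C8.

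H2BC3 rose most in RT-112, to 76.0, 59.0 and 35.7 CPM in CD44 High and 36.1, 34.6 and 68.3 CPM in CD44v6, from 10.9, 10.3 and 7.48 CPM in CD44 Low. These are log2 changes of 2.60 ± 0.305 (edgeR adjusted p = 0.000264) and 2.27 ± 0.303 (edgeR adjusted p = 0.000642). The J82 count of 14 became 3 without CD44 Low replicate 1, 6 without CD44 Low replicate 2, 5, 24 and 7 without CD44v6 replicate 1, 2 or 3, and 22 with DESeq2. The RT-112 count of 37 became 23 without CD44 Low replicate 2 and 23 without CD44v6 replicate 3. Between CD44v6 and CD44 High no member was called in J82 or RT-112 by edgeR or DESeq2. In each line 2 members had an unadjusted edgeR p under 0.05, as did 9.63% of all genes in J82 and 4.25% in RT-112. After adjustment edgeR called 0% of all genes.

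Whether the lines differ in CD44 Low against parental and in CD44 High against CD44 Low was tested by the interaction of line and group. All 24 libraries were used. For CD44 Low against parental, 0 of 58 members differed between the lines by edgeR or DESeq2, while 1.06% of all 17438 genes did. An unadjusted edgeR p under 0.05 was found for 5 members and for 13.8% of all genes. The 58 include H1-5, H3C11, H2BC14 and H2BC3, which had 2 to 32 counts in all 12 J82 libraries together and so no measurable change there. Over the 54 members tested in each line alone the count was also 0. Without J82 CD44 Low replicate 3, 1 member was called. For CD44 High against CD44 Low, 6 of 58 members differed, all with a smaller rise in J82 than in RT-112, beside 4.42% of all genes called in that direction. The 6 were H3C3, H2BC6, H2BC15, H2AC15, H3C4 and H4C3. Of these, H2AC15 and H2BC15 are a divergent pair with starts close together and may not be independent.

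H3C3 differed most. It was at 367, 282 and 198 CPM in RT-112 CD44 High, all above the 67.4 CPM of the highest CD44 Low library. In J82 H3C3 was at 19, 12.2 and 17.7 CPM in CD44 High and 15.6, 9.99 and 18 CPM in CD44 Low, and the groups overlapped. The log2 change of H3C3 was 2.21 ± 0.245 in RT-112 and 0.17 ± 0.228 in J82, a difference of -2.01 ± 0.355 (edgeR adjusted p = 0.000849). H2BC6 rose by 1.56 ± 0.232 in RT-112 and stood at 0.12 ± 0.257 in J82, a difference of -1.42 ± 0.347 (edgeR adjusted p = 0.0108). It had few counts in J82, at 3.18, 4.59 and 2.23 CPM in CD44 Low.

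H3C3 and H2BC6 were called in all 15 alternative fits. For H2AC15, H2BC15, H3C4 and H4C3 the differences were -0.78, -0.87, -0.78 and -0.55, and their calls were lost in 9, 8, 10 and 9 of the 12 fits without 1 library. H2AC15 and H3C4 also lost the call with the RLE (DESeq2-type) scaling factors, and H3C4 with upper quartile scaling. The count of 6 became 3, 4 and 2 without J82 CD44 Low replicate 1, 2 or 3, and 7, 2 and 2 without J82 CD44 High replicate 1, 2 or 3. It became 2, 2 and 3 without RT-112 CD44 Low replicate 1, 2 or 3, and 2, 2 and 6 without RT-112 CD44 High replicate 1, 2 or 3.

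**Figure D4:**
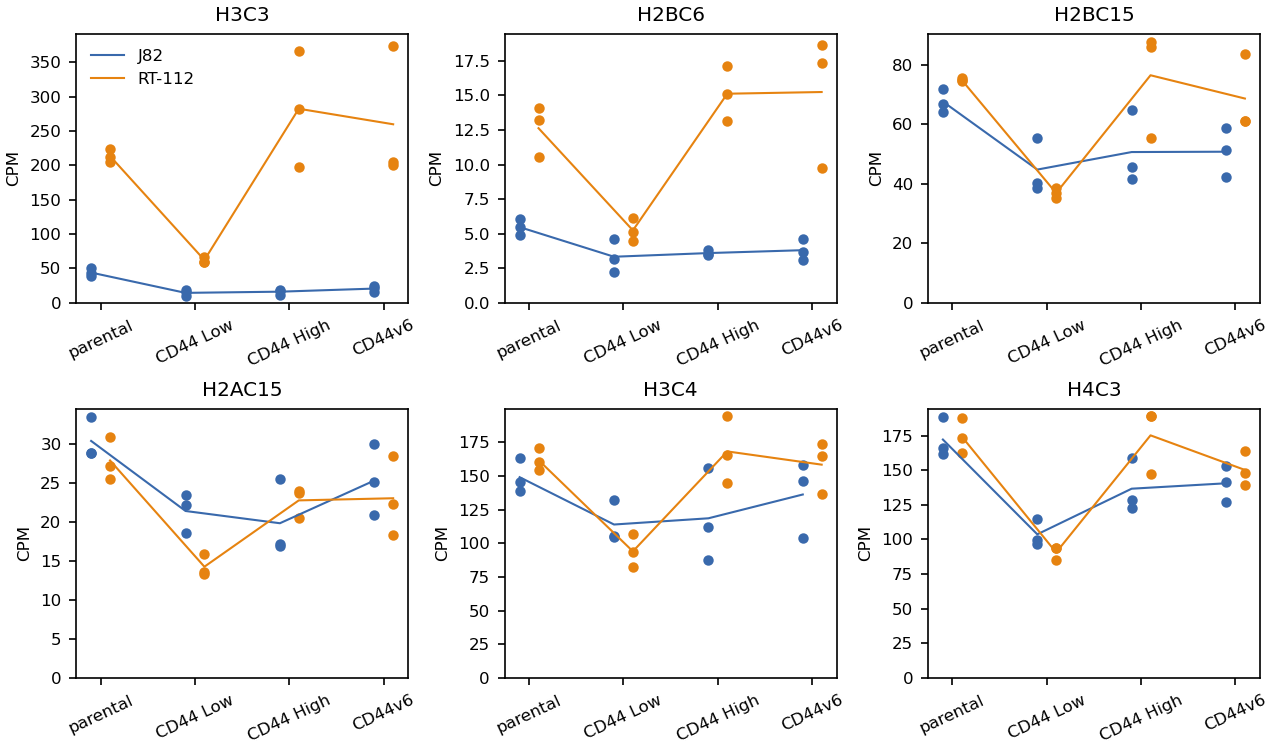
CPM in every library of the 6 members whose change from CD44 Low to CD44 High differed between the lines; points are libraries, lines join the means of 3, J82 in blue and RT-112 in orange. In the H3C3 panel the RT-112 values rise from 59.5 to 67.4 CPM in CD44 Low to 198 to 367 CPM in CD44 High, while the J82 values stay at or below 19 CPM in both.

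The parental lines themselves differed in which histone genes were read. Of 58 members tested, 28 were lower in J82 parental than in RT-112 parental cells and 2, H1-3 and H2AC6, were higher. The 28 include H1-5, H3C11, H2BC14 and H2BC3, which passed the filter through RT-112 alone; over the 54 members tested in each line alone, 24 were lower and 2 higher. Over all genes 31% were called lower and 31% higher. This describes these 2 lines and no wider group of tumours. The difference was uneven along the chromosomes: on chromosome 6, 26 of 47 members tested were lower (22 of 43 without the same 4 genes), while on chromosome 1 it was 2 of 11 (H2AC21 and H3C13). The summed level of the 11 chromosome 1 members was 2458 ± 82 CPM in J82 parental and 2716 ± 138 CPM in RT-112 parental. That of the 49 chromosome 6 members was 5873 ± 195 and 11412 ± 480 CPM.

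In J82, 4 members were at or near 0 while they were well covered in RT-112. H1-5, a linker histone gene, had 1 count in all 3 J82 parental libraries together and 2 counts in all 12 J82 libraries, against 44416 counts in the 3 RT-112 parental libraries. In CPM, H1-5 was at 653, 719 and 800 in RT-112 parental libraries. The ratio of its rates was 43600, with a 95% exact Poisson interval from 7820 to 1.72e+06 that covers counting error only. H3C11 had 4 counts in J82 parental cells and 5446 in RT-112, a ratio of 1340 (522 to 4900). H2BC14 had 8 and 3052, a ratio of 374 (190 to 867), and H2BC3 had 11 and 2200, a ratio of 196 (110 to 393).

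H2AC14, the neighbour of H2BC14 in gene order, was read in J82 at a lower level. H2AC14 was at 17.8, 17.5 and 20.2 CPM in J82 parental and 1107, 1115 and 1225 CPM in RT-112 parental libraries, a log2 difference of -5.96 ± 0.172. H2AC14 was the member with most reads in RT-112, at 8.10% of the sum, while in J82 it was H1-4, at 11.1%. The members on either side of H1-5 and H3C11 in gene order, H2AC16 and H4C13, were lower in J82 as well. H2AC16 averaged 46.4 CPM in J82 parental and 363 CPM in RT-112 parental cells, and H4C13 24.4 and 328 CPM. A few genes further on, H2AC17 and H2BC17 did not share the gap. They were at 309 and 204 CPM in J82 parental cells and 381 and 155 CPM in RT-112.

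**Figure D5:**
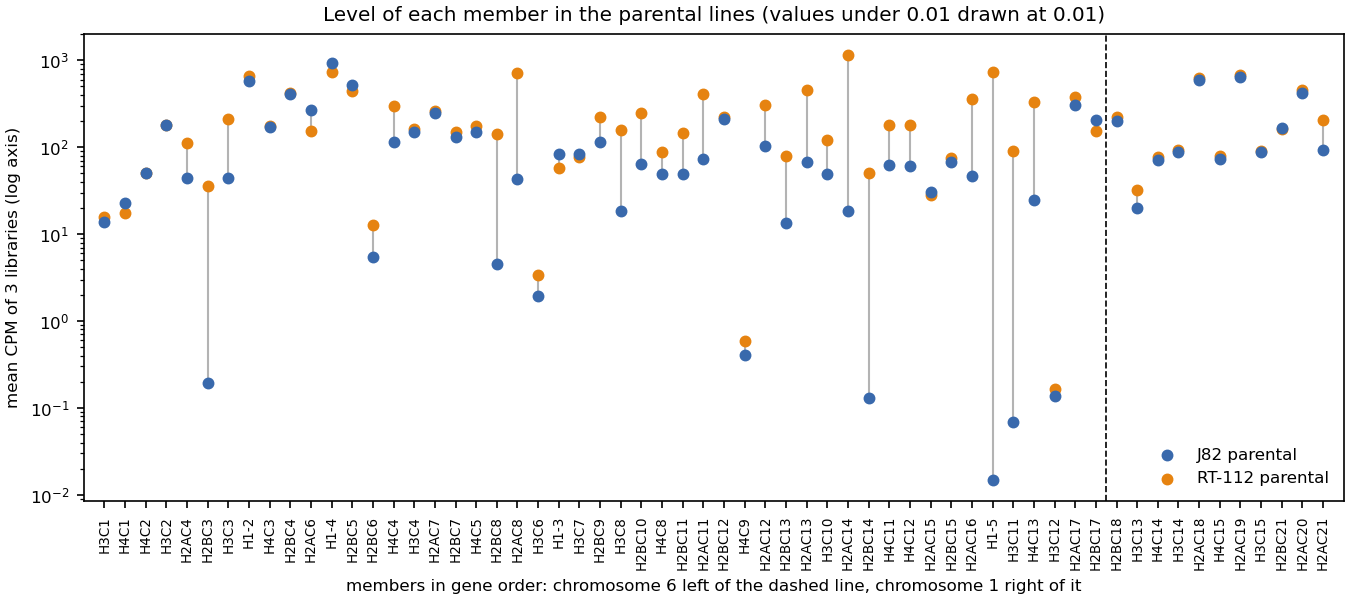
Mean CPM of each member in J82 parental (blue) and RT-112 parental (orange) cells, on a log axis, in gene order along chromosome 6 (left of the dashed line) and chromosome 1 (right); grey lines join both values of a gene. CPM is not per length, so heights compare lines within a gene and not genes. H1-5, H3C11, H2BC14 and H2BC3 show the longest gaps, and on chromosome 1 the longest is in H2AC21.

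Many H2A and H2B genes lie head to head, with under 500 bases between their starts, and 9 such pairs of members were found in the RefSeq order. Partners had the same sign of the difference between J82 and RT-112 in 5 pairs and opposite signs in 4, and no test of the pairing was run. H2BC8 and H2AC8 were both lower in J82 than in RT-112 (-4.97 and -4.04), as were H2BC11 and H2AC11 (-1.56 and -2.50) and H2BC13 and H2AC13 (-2.55 and -2.75). Of H2AC14 and H2BC14, the second was near 0 in J82 and the first was 18.5 CPM there against 1149 CPM in RT-112. In the pairs H2AC7 and H2BC7, H2AC15 and H2BC15, H2AC17 and H2BC17, and H2BC21 and H2AC20, neither partner was called and differences ran from -0.30 to 0.39. In the pair H2BC4 and H2AC6, at -0.07 and 0.78, H2AC6 was called higher in J82 and H2BC4 was not called. Reads over the short gap could be assigned to either partner, and this was not tested.

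Members read at a low level in J82 parental cells could still be lower in CD44 Low. H2AC8 was at 42.7, 39.7 and 48.4 CPM in J82 parental libraries and 19.2, 16.2 and 26.1 CPM in CD44 Low. In RT-112, where H2AC8 was at 730, 687 and 739 CPM, it was at 556, 491 and 402 CPM in CD44 Low, and its log2 changes were -1.10 in J82 and -0.61 in RT-112, both called. By chromosome, 34 of 43 chromosome 6 members and 11 of 11 chromosome 1 members tested fell in J82 CD44 Low, and 41 of 47 and 11 of 11 in RT-112. The medians were -0.93 and -0.87 in J82 and -0.76 and -0.78 in RT-112.

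The genes that make and handle histone messages were read from lists that had been written with earlier results known. Of 41 genes of histone transcription and 3′ processing tested, 4 fell in J82 CD44 Low and 1 in RT-112, with medians of -0.08 and -0.07. Among all genes tested 3.08% were called lower in J82 and 1.87% in RT-112, so the RT-112 count is near the background. SLBP, which binds the stem-loop, averaged 246 ± 6.27 CPM in J82 parental and 245 ± 27.5 CPM in CD44 Low, and 234 ± 24.5 and 264 ± 30.0 CPM in RT-112. Neither difference passed the test (log2 -0.01 and 0.14). NPAT, the S phase coactivator, stood at -0.06 ± 0.189 and -0.10 ± 0.252, and CASP8AP2, a component of the same nuclear bodies, at -0.12 ± 0.097 and -0.24 ± 0.198, and neither was called. LSM11, a subunit of the U7 particle, fell in J82 from 8.36 ± 0.241 to 4.57 ± 1.18 CPM (log2 -0.87 ± 0.213, edgeR adjusted p = 0.0329). In RT-112 LSM11 went from 11 ± 1.34 to 7.92 ± 0.395 CPM and missed the threshold (-0.51 ± 0.144, edgeR adjusted p = 0.0783). Only CCNF, a cyclin of the SCF ubiquitin ligase known to act on SLBP, was called in both lines, at -0.76 and -0.83. CCNF is also on the list of G2 and mitosis genes counted below, so both counts hold it.

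In CD44 High against CD44 Low, 6 of these 41 genes rose and 4 fell in J82, and 6 rose and 2 fell in RT-112. Over all genes tested 8.83% rose and 6.9% fell in J82 and 9.01% and 7.02% in RT-112, so the falls are near the background. CCNF rose by 1.03 and 1.02 and CCNA2, the cyclin A gene, by 0.65 and 0.48 in J82 and RT-112. LSM11 rose in J82 by 0.89 ± 0.213 and stood at 0.22 ± 0.145 in RT-112, and CASP8AP2 fell in J82 by 0.58. CASP8AP2 was also lower in RT-112 CD44v6 than in parental cells, at -1.10 ± 0.201. SLBP and NPAT were not called in either line.

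Cell cycle genes were counted beside the histones, because their levels move with the share of dividing cells. Of 51 genes of DNA replication and S phase, 6 fell in J82 CD44 Low and 2 in RT-112, with medians of -0.19 and -0.12. The shares called lower over all genes were 3.08% and 1.87%. GINS1, a subunit of the replicative helicase, was called in both lines, at -0.48 and -0.46. Of 28 genes of G2 and mitosis, 12 fell in J82 and 10 in RT-112, far above the shares over all genes, with medians of -0.38 and -0.35. UBE2C, a mitotic ubiquitin-conjugating enzyme, fell by 1.06 and 1.11, CDK1 by 0.94 and 0.71, and AURKB by 0.68 and 0.69 in J82 and RT-112. In CD44 High against CD44 Low, 18 and 15 of the 28 rose, led by UBE2C at 1.43 and 1.55. The shares over all genes were 8.83% higher and 6.9% lower in J82, and 9.01% and 7.02% in RT-112. Of the S phase genes, 10 rose and 3 fell in J82 and 12 rose and 1 fell in RT-112, among them RRM2, a ribonucleotide reductase subunit, at 0.75 and 0.74, while MCM6 fell by 0.60 and 0.49. The part of cell cycle distribution in the histone result was not tested.

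Of the 28 histone chaperones tested, 2 fell in J82 CD44 Low and 1 in RT-112, and HJURP, the chaperone of the centromeric histone, was called in both, at -0.55 and -0.77. Of 15 replication-independent histone genes tested, 1 fell in J82 and 3 in RT-112, and none was called in both. Among all genes 3.08% fell in J82 and 1.87% in RT-112, and a count of 1 in lists this short is near these shares. In CD44 High against CD44 Low, 5 of the 15 rose and none fell in J82, and 4 rose and 3 (H3-3A, MACROH2A2 and H2AJ, the last by 0.80) fell in RT-112. The shares over all genes were 8.83% higher and 6.9% lower in J82, and 9.01% and 7.02% in RT-112. H2AX, the variant phosphorylated at DNA breaks, rose by 0.68 and 0.73, and CENPA, the centromeric H3 variant, by 0.77 and 0.61 in J82 and RT-112.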

How the data were processed

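Per the labels' protocols, total RNA was column-purified and sequenced commercially, giving 24 libraries. The submitters' processing notes name HISAT2, StringTie and the build GRCh37, with no version, and strand, library type and annotation are not given in the sources used here. The deposited table holds whole-number read counts per gene for 35993 symbols, and all its columns matched samples by title. From these counts, genes were filtered with edgeR's filterByExpr, scaled with TMM factors and tested with edgeR 4.0.16 (R 4.3.3; quasi-likelihood test, group as the only term) on the 12 libraries of each line. The line comparison and the interactions were fitted on all 24 libraries. P-values were adjusted over all genes tested (Benjamini-Hochberg), and a gene at an adjusted p under 0.05 was called. CPM used the TMM-scaled library sizes. H4C9 and H3C12 passed no filter, and H1-5, H2BC3, H2BC14 and H3C11 did not pass in J82.

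The members and gene lists were chosen with earlier results of these data known. Named members were the 2 with most reads per class, up to 4 per comparison that were called in the same direction in J82 and RT-112 (by the smaller change), the largest called change per comparison and line, those with a called interaction, and H3C3 and H4C13; named list genes were up to 4 called in both lines plus SLBP, NPAT, CASP8AP2 and LSM11. H3C1, H3C6, H4C1, H2AC8, H2AC14, the divergent pairs, the members near 0 in J82, CD68, H3-3A, MACROH2A2 and H2AJ were named after their values were seen. Alternatives were other scalings and filters, DESeq2 1.42.0, other sets of libraries, a replicate block, removal of other RNAs without a poly(A) tail, and leaving out each library. The fit was also run on simulated counts with the same set spread for every gene and independent libraries. That spread was below the common one estimated in J82, so the simulation says little about the J82 calls. Same-numbered libraries deviated together at all 3 numbers in 1 comparison, J82 CD44v6 against CD44 High (r = 0.11, 0.11 and 0.25), where no member was called with or without the block. Promoters came from a RefSeq table and transcripts from GENCODE 29, with 55 and 56 of 60 members matched. No 2 libraries of a group agreed within sampling noise (chi-square per degree of freedom of 6.42 or more over 24 pairs).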

Additional observations from a re-analysis of the deposited data

Results flagged for a closer look

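The change from CD44 Low to CD44 High differed between J82 and RT-112 by a test of the difference itself for 6 members, all with a smaller rise in J82. The differences (log2, J82 minus RT-112) were -2.01 for H3C3, -1.42 for H2BC6, -0.87 for H2BC15, -0.78 for H2AC15, -0.78 for H3C4 and -0.55 for H4C3. H3C3 in J82 stayed low in all 3 derived lines, at 9.99 to 18 CPM in CD44 Low, 12.2 to 19 CPM in CD44 High and 16.4 to 25.1 CPM in CD44v6, against 38.7 to 50.5 CPM in parental cells.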

How the results depend on the processing

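The fall of the members in CD44 Low and their rise from CD44 Low to CD44 High in RT-112 kept direction and a like count under other scalings, filters, DESeq2 and other sets of libraries. Ratios of summed CPM were recomputed for all comparisons within lines. Given here are the 6 for CD44 Low against parental and for CD44 High and CD44v6 against CD44 Low. These 6 moved by less than their spread in all 66 alternatives. Leaving out 1 of 3 libraries cannot move a mean by as much as its SD, so for those alternatives this outcome was fixed in advance. Counts for the smaller J82 results depended on the fit. For J82 CD44 High against parental (9 members) DESeq2 called 22, a fit on the compared groups alone 25, all 24 libraries 19 and the replicate block 15. For J82 CD44v6 against parental (5) these gave 16, 3, 15 and 11. For J82 CD44v6 against CD44 Low (14), DESeq2 called 22 and the compared groups alone 6, and for J82 CD44 High against CD44 Low (12) the latter called 7. For RT-112 CD44v6 against parental (0), DESeq2 called 1 and the compared groups alone 4.

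Leaving out single libraries gave 27 to 46 members for J82 CD44 Low against parental, 3 to 23 for CD44 High and 0 to 7 for CD44v6 against parental, 1 to 23 for CD44 High and 3 to 24 for CD44v6 against CD44 Low. In RT-112 it gave 33 to 45 for CD44 Low against parental, 32 to 52 for CD44 High against CD44 Low and 23 to 45 for CD44v6 against CD44 Low. The interactions gave 0 to 1 for CD44 Low against parental and 2 to 7 for CD44 High against CD44 Low.

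Of 73 gene results, 43 kept their call in all alternatives and 3 changed sign in some, all uncalled in J82 CD44 High against CD44 Low: H1-4 (-0.042 without CD44 Low replicate 1 and -0.017 without CD44 High replicate 1, with a highest value of 0.16), H3C3 (-0.04 without CD44 Low replicate 2, highest 0.36) and H3C4 (-0.18 without CD44 High replicate 1, highest 0.24). The cause of these shifts was not tested. In the other comparisons same-numbered libraries did not deviate together at all 3 numbers, so no pairing was used. In J82, however, CD44 Low replicate 3 deviated with replicate 3 of CD44 High (r = 0.23) and of CD44v6 (r = 0.38). Small nuclear RNA in replicate 3 was at 201.8, 195.2 and 135.2 CPM in J82 CD44 Low, CD44 High and CD44v6. Replicates 1 and 2 of these lines were at 691 to 1023.5 CPM. What set replicate 3 apart was not tested. Beyond CD44 High and CD44v6 against parental in J82, the replicate block moved no count of members by over 1.5 times. Members at a few counts in J82, such as H1-5, are limited by depth there.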
